A study of Mus musculus with 21 samples.

Results

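The genes described here encode laminin chains of the epithelial basement membrane and the proteins of the hemidesmosome that bind it. The list of 9 genes was Lama3, Lamb3, Lama5, Lamb1, Lamc1, Itga6, Itgb4, Col17a1 and Plec. It was chosen with earlier results of these data known, so counts of members beside shares of all genes are descriptions. The genes were matched by Ensembl gene ID to the GENCODE vM21 symbols, out of 55536 gene IDs in the deposited table of raw counts. All 9 passed the filter on low counts. The gene of the third chain of laminin-332 was not analysed here. The RNA came from primary mouse mammary organoids, small cultures of mammary epithelium, in which the oncogene neuT, an activated rat Erbb2, was switched on. Polyadenylated RNA was sequenced at day 0, day 14 and day 28 after activation in organoids homozygous for the ATLD1 allele of Mre11 (ATLD) and in wild-type organoids (WT), with 3 libraries in each of the 6 groups. Mre11 is the nuclease of the complex that binds DNA double-strand breaks. All 6 groups carried neuT, day 0 is the day of its activation, and a culture kept without active neuT for 14 or 28 days was not among the groups. The labels give neither the promoter that drives neuT nor the age of the animals, and they do not say whether replicates were separate animals, so p-values measure the spread between these libraries, which may be technical.

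Laminins are trimers of an alpha, a beta and a gamma chain that form the sheet of the basement membrane. Laminin-332, with the alpha chain from Lama3 and the beta chain from Lamb3, is the anchoring laminin of stratified and glandular epithelium, while chains from Lama5, Lamb1 and Lamc1 build the other epithelial laminins. In the hemidesmosome the integrin of the Itga6 and Itgb4 products binds laminin-332 outside the cell, the transmembrane collagen XVII from Col17a1 stands beside it, and plectin from Plec ties both to keratin filaments. In the mammary gland these structures lie in the basal and myoepithelial cells that rest on the basement membrane.

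In the fit with a term for the sequencing batch, ATLD organoids had less RNA of these genes than WT organoids at every day. The exception was Itga6 at day 0, whose difference missed the threshold. The calls of day 0 depended on the fit. Without the batch term Lamb3, Lama5, Itgb4, Col17a1 and Plec lost theirs and Itga6 was called, and leaving out 1 library gave 1 to 9 calls. The gap was widest at day 28 for 8 of the 9. At day 28 all 9 were called lower, where 34.9% of all genes tested were. Over 28 days of neuT, 6 of the 9 fell in ATLD organoids, where 15.7% of all genes fell. None fell in WT organoids, and Lamb3 and Col17a1 rose there, 2 of 9 where 12.3% of all genes rose, a share near that background. Lamb3 was the only member whose fitted change in ATLD over 28 days lay above 0, although it missed the threshold, and the ratio of Lamb3 to Lama3 RNA was higher there at day 28 than in any other group. In bulk RNA, fewer cells of a type and less RNA per cell cannot be told apart.

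The libraries held 46331204 to 51757203 counts in ATLD and 30905703 to 50879106 in the original WT runs. Per the labels, a second run of replicate 1 was made for every WT day beside the ATLD samples, to address a batch effect, and these 3 further libraries held 46532851 to 48887808 counts. A level is given as counts per 1000000 counts of a library (CPM), with the TMM correction for library composition of edgeR applied. The genotype label held at the targeted gene: Mre11a averaged 14.8 ± 0.725 CPM in ATLD and 55.4 ± 2.75 CPM in WT organoids at day 0 (SD, n = 3 each), a log2 difference of -1.79 ± 0.11 (SE). Some features of the libraries move with the members. In ATLD, replicate 1 was the highest library for all 9 members at day 0 and at day 14, replicate 3 was the lowest for all 9 at day 0, and replicate 3 was the highest for all 9 at day 28. In WT, replicates 1 and 3 of day 14 and replicate 2 of day 28 were poor in GC-rich transcripts: the log2 level of genes of 55% GC or more, relative to genes under 45%, was -0.82, -0.81 and -0.64 there, against -0.39 to 0.17 in the other WT libraries. Long genes of 6000 bases or more stood at -0.38 to 0.03 relative to genes under 2000 bases in ATLD libraries and at 0.10 to 0.26 in the original WT libraries, on the same scale. The members are long, from 6011 bases of exon in Col17a1 to 18113 in Plec, and their GC content ran from 48.9% in Itga6 to 61.3% in Plec. The part of these features in the results was not tested beyond the alternatives named below.

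Levels per kilobase of exon place the members in order within a group. In ATLD organoids at day 0, Col17a1 stood highest with 40.7 ± 17.1 CPM per kb and Lama3 lowest with 5.24 ± 2.22 CPM per kb (SD, n = 3). Itga6, Itgb4 and Lamb3 followed Col17a1 there with 35.1 ± 8.41, 29.1 ± 7.88 and 25.9 ± 7.46 CPM per kb, and neighbours among these 4 did not differ beyond their spread. In ATLD organoids at day 28 the order had changed: Lamb3 led with 36.8 ± 8.93 CPM per kb, ahead of Itga6 with 19.1 ± 6.30 and Col17a1 with 17.5 ± 8.90, and Lama3 was last with 1.89 ± 0.889. In WT organoids the leading 4 were Col17a1, Itga6, Lamb3 and Itgb4 at every day, with Col17a1 at 66.2 ± 7.92, 149 ± 50.7 and 177 ± 44.1 CPM per kb at days 0, 14 and 28, and Plec was last, at 10.3 ± 1.86, 10.3 ± 7.78 and 12.8 ± 5.57 CPM per kb. Lama3, Lama5 and Lamb1 in WT organoids at day 0, with 16.7 ± 0.311, 17.1 ± 3.15 and 15.5 ± 1.29 CPM per kb, lay within the spread of Lama5 of each other.

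**Figure D1:**
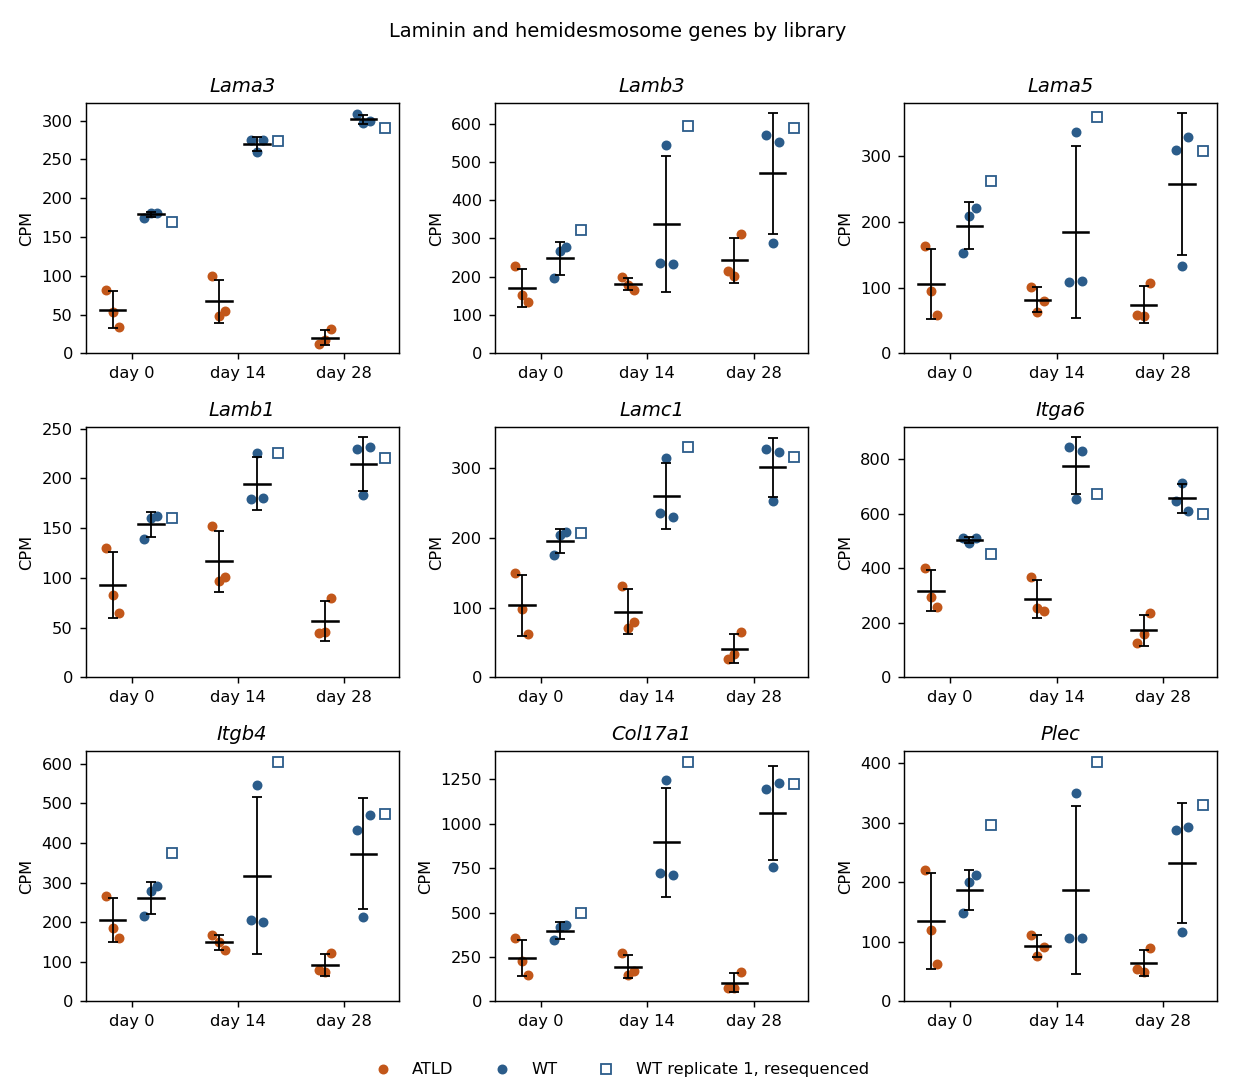
TMM-scaled level in CPM (linear axis from 0) of each of the 9 genes in every library, by day of neuT activation, with ATLD left of WT; filled points are the 3 libraries of a group, bars the mean and 1 SD, and open squares the resequenced run of WT replicate 1. Lama3 in ATLD lies below every WT library at all 3 days, and at day 28 ATLD libraries hold 12.6 to 31.0 CPM, against 297 to 308 in WT.

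Lama3 encodes the alpha3 chain, the part of laminin-332 that the integrin binds, and at day 28 its genotype gap was close to that of Col17a1, within 1 SE, and wider than those of the other members. It lies on the plus strand of chromosome 18 at 12333819 to 12583013 (mm10). Lama3 had 81.3, 53.8 and 33.7 CPM in the ATLD libraries of day 0, 99.2, 47.7 and 54.8 CPM in those of day 14, and 12.6, 17.2 and 31.0 CPM in those of day 28. In the WT libraries it had 175, 181 and 181 CPM at day 0, 275, 259 and 275 CPM at day 14, and 308, 297 and 300 CPM at day 28. Every ATLD library thus lay below every WT library of the same day, and the WT replicates were close together while the ATLD replicates spread. The log2 difference, ATLD minus WT, was -1.62 ± 0.33 (SE, adjusted p = 0.000450) at day 0, -1.98 ± 0.33 (adjusted p = 4.04e-05) at day 14 and -3.85 ± 0.35 (adjusted p = 2.06e-08) at day 28, when Lama3 was 14.5-fold lower. Within ATLD, Lama3 fell at day 28 by 1.47 ± 0.32 on the log2 scale relative to day 0 (adjusted p = 0.00219) and by 1.73 ± 0.32 against day 14 (adjusted p = 0.00130). Within WT its change was 0.75 ± 0.31 at day 28 against day 0, which missed the threshold with an adjusted p of 0.0963. In a fit of the 2 compared WT groups alone, where the spread is that of the WT libraries, the same change was 0.73 ± 0.06 with an adjusted p of 0.000111.

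Lamb3 encodes the beta3 chain that pairs with alpha3 in laminin-332, and it did not follow Lama3 in ATLD organoids. Lamb3 had 227, 151 and 135 CPM in ATLD at day 0, 198, 179 and 166 CPM at day 14, and 216, 203 and 311 CPM at day 28. In WT it had 197, 268 and 278 CPM at day 0, 237, 544 and 233 CPM at day 14, and 570, 287 and 553 CPM at day 28. The ATLD libraries overlapped the WT libraries at day 0 and day 28, and the low WT values of the later days are those of the 3 libraries poor in GC-rich transcripts. ATLD was lower by a log2 difference of -1.02 ± 0.34 (adjusted p = 0.0170) at day 0, -1.49 ± 0.33 (adjusted p = 0.000754) at day 14 and -1.42 ± 0.34 (adjusted p = 0.00138) at day 28. Its change in ATLD at day 28 against day 0 was 0.51 ± 0.32 with an adjusted p of 0.247, and in WT Lamb3 rose by 0.93 ± 0.32 (adjusted p = 0.0419). With an offset for GC content and length, chosen after seeing the data, the change in ATLD was called, at 0.51 ± 0.17 (adjusted p = 0.0217). The call in WT was lost when any of the WT libraries of day 0, or replicate 1 or 3 of WT day 28, was left out, with log2 changes of 0.77 to 1.02 and adjusted p-values of 0.0721 to 0.162. The test of the difference in change between the genotypes gave -0.42 ± 0.45 for Lamb3, with an adjusted p of 0.550, against -2.23 ± 0.45 (adjusted p = 0.00104) for Lama3.

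The ratio of Lamb3 to Lama3, both per kilobase, describes the balance of the 2 chains. It was 4.54, 4.57 and 6.49 in ATLD libraries at day 0, 3.25, 6.09 and 4.93 at day 14, and 27.8, 19.2 and 16.3 at day 28. In the original WT libraries it averaged 2.24 ± 0.365, 2.06 ± 1.17 and 2.53 ± 0.829 at days 0, 14 and 28 (SD, n = 3 each). The second runs of WT replicate 1 gave 3.09, 3.52 and 3.30, and the value of day 14 lay within the ATLD range of that day. The ATLD libraries of day 28 lay above all other libraries, the ratio having a mean of 21.1 ± 5.96, against 5.20 ± 1.12 in ATLD at day 0. The ratio was formed after the values of both genes were seen and is given as a description, with no test.

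**Figure D2:**
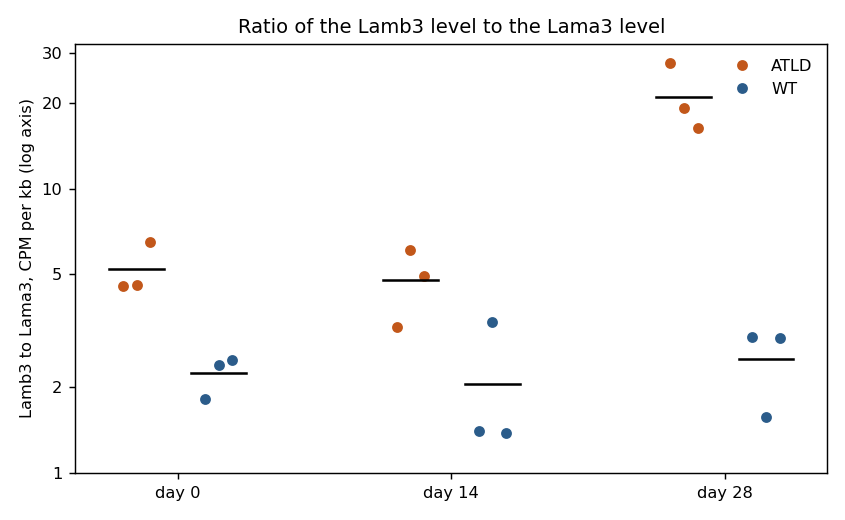
Ratio of the Lamb3 level to the Lama3 level, both in CPM per kilobase of exon, in each original library (log axis), by day of neuT activation. ATLD stands left of WT, with a bar at the mean of 3 libraries, and the resequenced WT runs are not drawn. The 3 ATLD libraries of day 28 lie at 16.3 to 27.8, above the 6.49 that is the highest value of any other group.

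RefSeq promoter sequences of GRCm38.p6, running from 250 bases before to 50 after a start site, were at hand for 4 of the 9 members. The 250 bases before the start are shown for 3 of them: Lamb3, which was not called lower in ATLD over 28 days, and Lamb1 and Col17a1, which were. They lie at chr1:193301993-193302242 on the plus strand (the second of 2 starts listed for Lamb3), chr12:31265043-31265292 on the plus strand and chr19:47692043-47692292 on the minus strand. Capitals mark matches, on either strand, to the GC box GGGCGG of Sp1-type factors or to the E2 box CAGGTG of ZEB- and SNAI-type repressors.
Lamb3: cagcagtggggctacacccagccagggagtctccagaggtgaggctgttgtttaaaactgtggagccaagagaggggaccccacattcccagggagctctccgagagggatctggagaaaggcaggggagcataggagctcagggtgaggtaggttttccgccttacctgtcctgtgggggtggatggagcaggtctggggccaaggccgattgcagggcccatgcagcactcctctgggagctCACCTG
Lamb1: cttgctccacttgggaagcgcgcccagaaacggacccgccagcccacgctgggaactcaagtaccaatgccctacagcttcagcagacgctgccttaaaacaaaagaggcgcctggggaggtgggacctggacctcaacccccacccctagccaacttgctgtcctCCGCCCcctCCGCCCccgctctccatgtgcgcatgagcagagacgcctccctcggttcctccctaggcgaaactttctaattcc
Col17a1: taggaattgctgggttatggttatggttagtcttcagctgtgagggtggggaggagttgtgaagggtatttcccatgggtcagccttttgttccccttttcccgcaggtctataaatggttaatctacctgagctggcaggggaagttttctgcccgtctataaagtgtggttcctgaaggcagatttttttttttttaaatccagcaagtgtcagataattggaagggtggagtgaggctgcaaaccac
Over the whole 300 bases, this Lamb3 start held 2 E2 boxes, one ending just before the start site and the other within the first bases after it, and Lamb1 held 2 GC boxes. Col17a1 held neither. An E2 box was present in 20.2% and a GC box in 35.7% of 32851 promoters of the same length. The AP-1 motif TGANTCA and the E box CACGTG, found in 7.81% and 7.15% of those promoters, did not occur in the windows of the 4 members, and no matched motifs overlapped. Lama5 held 4 GC boxes and 2 E2 boxes, and the other Lamb3 start held none of the motifs. Such matches are descriptions of the letters in these windows, not of bound sites.

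Lama5, Lamb1 and Lamc1 give the chains of the other epithelial laminins, and all of them were lower in ATLD organoids at each day. Lamc1, the gamma1 chain shared by most laminins, had 150, 97.3 and 61.8 CPM in ATLD at day 0, 131, 71.4 and 79.8 CPM at day 14, and 25.9, 32.8 and 64.6 CPM at day 28. In WT it had 176, 204 and 208 CPM at day 0, 236, 315 and 230 CPM at day 14, and 328, 253 and 323 CPM at day 28. No ATLD library reached a WT library of its day. Its log2 difference, ATLD minus WT, was -1.07 ± 0.34 (adjusted p = 0.0126) at day 0, -1.68 ± 0.34 (adjusted p = 0.000284) at day 14 and -3.02 ± 0.35 (adjusted p = 6.49e-07) at day 28. Lamb1, the beta1 chain, averaged 92.5 ± 33.4, 117 ± 30.9 and 56.5 ± 20.2 CPM in ATLD and 154 ± 12.8, 194 ± 26.3 and 214 ± 27.3 CPM in WT at days 0, 14 and 28 (SD, n = 3 each), also without overlap at any day. Its differences were -0.82 ± 0.26, -0.87 ± 0.26 and -2.01 ± 0.27. Lama5, the alpha chain of the widespread laminin of adult epithelium, averaged 106 ± 53.3, 81.1 ± 19.0 and 74.3 ± 28.7 CPM in ATLD, against 194 ± 35.9, 185 ± 131 and 257 ± 108 CPM in WT. Its differences were -1.41 ± 0.48, -1.86 ± 0.48 and -2.28 ± 0.49.

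These 3 chains parted over time in ATLD organoids. At day 28 against day 0, Lamc1 fell by 1.32 ± 0.33 (adjusted p = 0.00567) and Lamb1 by 0.71 ± 0.25 (adjusted p = 0.0426) on the log2 scale, and the change of Lama5 was -0.51 ± 0.45 with an adjusted p of 0.431. The Lamb1 call was lost without replicate 1 or 2 of ATLD day 0 or of ATLD day 28, with changes of -0.79 to -0.39. Per kilobase, the ratio of Lamb1 to Lamc1 was 0.770 ± 0.0917, 1.05 ± 0.0809 and 1.20 ± 0.200 in ATLD, against 0.654 ± 0.00413, 0.626 ± 0.0292 and 0.594 ± 0.00961 in WT, at days 0, 14 and 28. The ratio of Lama5 to Lamc1 was 1.37 ± 0.235 in ATLD at day 28 and 0.729 ± 0.0560 in ATLD at day 0, against 0.602 ± 0.192 and 0.716 ± 0.0732 in WT at the same days. In the second run of WT replicate 1 the ratio of Lama5 to Lamc1 was 0.707 at day 28 and 0.920 at day 0. The value of day 0 lay above every ATLD library of that day. These ratios are descriptions without a test.

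Itga6 and Itgb4 encode the alpha6 and beta4 subunits of the laminin receptor of hemidesmosomes, and both fell in ATLD organoids between day 0 and day 28. Itga6 had 402, 293 and 256 CPM in ATLD at day 0, 366, 252 and 241 CPM at day 14, and 124, 159 and 235 CPM at day 28. In WT it had 509, 492 and 511 CPM at day 0, 842, 654 and 828 CPM at day 14, and 646, 712 and 608 CPM at day 28. The genotypes did not overlap at any day. The log2 difference, ATLD minus WT, was -0.50 ± 0.22 at day 0 and missed the threshold with an adjusted p of 0.0617. It was -1.26 ± 0.22 (adjusted p = 8.16e-05) at day 14 and -1.77 ± 0.22 (adjusted p = 1.77e-06) at day 28. At day 28 against day 0, Itga6 fell by 0.88 ± 0.21 in ATLD (adjusted p = 0.00515). In WT it rose by 0.62 ± 0.21 at day 14 (adjusted p = 0.0357), and its change at day 28 was 0.38 ± 0.21 with an adjusted p of 0.238. The rise at day 14 was lost when any of the WT libraries of day 0 or day 14 other than replicate 2 of day 14 was left out, with adjusted p-values of 0.0731 to 0.112. It was also lost without the 3 WT libraries poor in GC-rich transcripts, at 0.34 ± 0.29 (adjusted p = 0.448), an alternative chosen after seeing the data.

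Itgb4 had 267, 185 and 161 CPM in ATLD at day 0, 168, 150 and 130 CPM at day 14, and 77.8, 74.0 and 123 CPM at day 28. In WT it had 215, 278 and 291 CPM at day 0, 205, 546 and 201 CPM at day 14, and 434, 213 and 472 CPM at day 28. The genotypes overlapped at day 0 and were apart at day 14 and day 28. Its log2 difference was -0.94 ± 0.38 (adjusted p = 0.0433), -1.78 ± 0.38 (adjusted p = 0.000441) and -2.57 ± 0.39 (adjusted p = 1.54e-05) at days 0, 14 and 28. Itgb4 fell by 1.16 ± 0.36 in ATLD at day 28 against day 0 (adjusted p = 0.0215). That call was lost without replicate 1 of ATLD day 0 or replicate 1 or 2 of ATLD day 28, with changes of -1.05 to -0.92. Its change in WT, 0.51 ± 0.35, had an adjusted p of 0.355. Without the 3 WT libraries poor in GC-rich transcripts, an alternative chosen after seeing the data, the WT change of day 14 was 1.03 ± 0.26 with an adjusted p of 0.00844, and that of day 28 was 0.77 ± 0.21 with an adjusted p of 0.0131. Per kilobase, Itgb4 stood at 0.825 ± 0.0242, 0.684 ± 0.0875 and 0.693 ± 0.106 of Itga6 in ATLD and at 0.667 ± 0.108, 0.567 ± 0.440 and 0.750 ± 0.323 in WT, at days 0, 14 and 28, and the original libraries of the genotypes overlapped at day 14 and day 28. At day 0 the ratio of the original runs was 0.809 to 0.853 in ATLD and 0.543 to 0.733 in WT, but the second run of WT replicate 1 gave 1.07, against 0.543 in its first run, so the order of the genotypes at day 0 depended on the run.

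Col17a1, the transmembrane collagen of the hemidesmosome, moved in opposite directions in the genotypes. It had 354, 229 and 150 CPM in ATLD at day 0, 271, 147 and 168 CPM at day 14, and 73.5, 75.6 and 167 CPM at day 28. In WT it had 344, 418 and 432 CPM at day 0, 724, 1247 and 714 CPM at day 14, and 1199, 756 and 1230 CPM at day 28. The genotypes overlapped at day 0 by 1 ATLD library and were wide apart later. In WT it rose by 1.17 ± 0.36 at day 14 (adjusted p = 0.0189) and by 1.42 ± 0.36 at day 28 (adjusted p = 0.00681), a 2.67-fold higher level than at day 0. In ATLD it fell by 1.21 ± 0.36 at day 28 against day 0 (adjusted p = 0.0166). The fall was lost without replicate 1 of ATLD day 0 or replicate 1 or 2 of ATLD day 28, with changes of -1.02 to -0.85, and the rise at day 14 was lost without replicate 1 of WT day 0 (1.10 ± 0.42) or replicate 2 of WT day 14 (0.86 ± 0.36). The log2 difference, ATLD minus WT, was -1.07 ± 0.37 (adjusted p = 0.0216) at day 0, -2.63 ± 0.38 (adjusted p = 8.22e-06) at day 14 and -3.67 ± 0.40 (adjusted p = 2.25e-07) at day 28, when Col17a1 was 12.7-fold lower.

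Plec encodes plectin, a very large linker of integrin to keratin. It averaged 134 ± 80.4, 93.0 ± 18.4 and 64.2 ± 22.1 CPM in ATLD and 187 ± 33.6, 187 ± 141 and 232 ± 101 CPM in WT at days 0, 14 and 28 (SD, n = 3 each). The spread was wide in both genotypes: single libraries ran from 61.9 to 221 CPM in ATLD at day 0 and from 106 to 350 CPM in WT at day 14. ATLD minus WT was -1.22 ± 0.51 (adjusted p = 0.0496), -1.87 ± 0.51 (adjusted p = 0.00338) and -2.56 ± 0.53 (adjusted p = 0.000335) at days 0, 14 and 28. No change with time passed the threshold for Plec: the largest, in ATLD at day 28 against day 0, was -1.06 ± 0.48 with an adjusted p of 0.111. Without replicate 3 of ATLD day 0 that change was called, at -1.41 ± 0.48 (adjusted p = 0.0422). Exons of Plec share 1.13% of their bases with Parp10 on the same strand, Itgb4 shares 7.66% and Lama3 1.83% with noncoding genes of the opposite strand, and the other 6 members share no exon base with an annotated gene.

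The comparison of ATLD with WT asked how these genes differed between the genotypes at the day of neuT activation and during it. All 9 members were lower in ATLD at day 14 and at day 28, and 8 of 9, all but Itga6, at day 0. These counts stand against a background in which 55.6% of all genes tested were called at day 0, 65.1% at day 14 and 64.2% at day 28, with 29.5%, 35.0% and 34.9% called lower and 26.1%, 30.1% and 29.3% called higher. All ATLD libraries lay below all original WT libraries for 4 members at day 0, 8 at day 14 and 8 at day 28, as they did for 35.8%, 37.4% and 38.2% of all genes. The median log2 difference of the members was -1.07, -1.78 and -2.56, against -0.04, -0.07 and -0.05 over all genes. Among the 532 genes that share the length and GC content of several members, at least 6000 bases and 55% GC, the median was -0.61, -0.64 and -0.73, with 45.7%, 50.6% and 52.6% called lower. These comparisons used all 21 libraries with a term for the sequencing batch. Both runs of WT replicate 1 counted there as independent libraries, so SE and p-values may be too small. The term is equal at all days, but the shift between the runs was not. At days 0, 14 and 28 it was 0.99, 1.93 and 0.20 for Plec and -0.17, -0.33 and -0.11 for Itga6 (log2, second minus first run). Without the term, the day 28 differences were -1.86 ± 0.49 for Plec and -1.93 ± 0.22 for Itga6, a narrower and a wider gap.

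**Figure D3:**
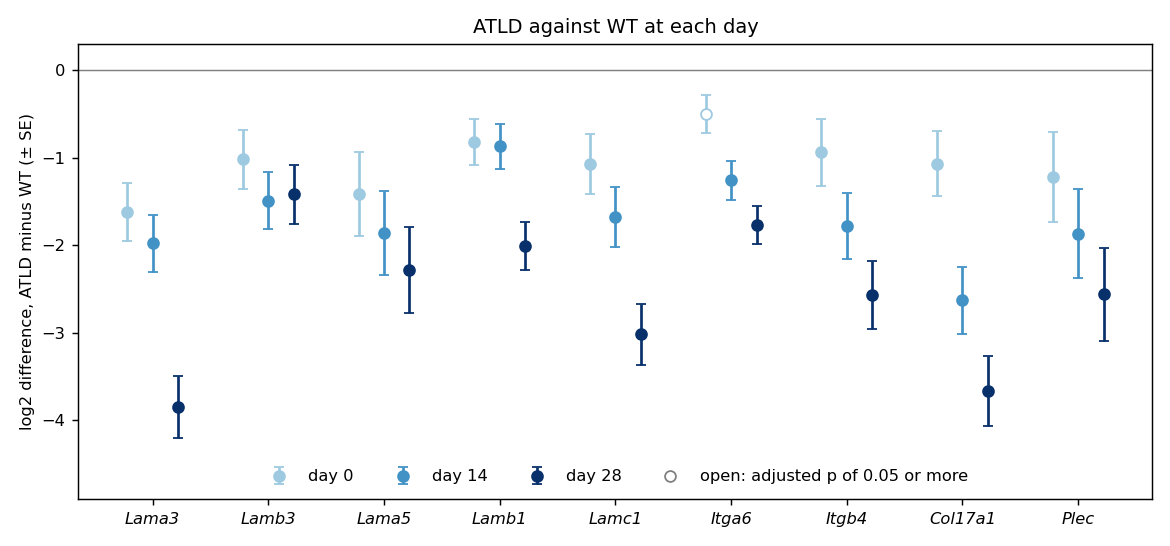
Log2 difference between ATLD and WT (ATLD minus WT) for each of the 9 genes at days 0, 14 and 28, from the fit of 21 libraries with a batch term; bars are 1 SE and filled points passed an adjusted p of 0.05. All differences lie below 0, and Lama3 and Col17a1 reach -3.85 and -3.67 at day 28.

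Within the second batch alone, where the 3 ATLD libraries of a day met 1 resequenced WT library, all 9 differences kept their sign at each day and the members called were 4 at day 0, 8 at day 14 and 9 at day 28. There Lama3 differed by -1.55 ± 0.46, -1.96 ± 0.46 and -3.81 ± 0.45, and Col17a1 by -0.99 ± 0.46, -2.72 ± 0.44 and -3.51 ± 0.44, at days 0, 14 and 28. This fit assumes that the lone WT library varies like the ATLD libraries. The first batch holds WT only and gives no such value. Without a batch term, the 18 original libraries gave 4 calls at day 0: Lama3, Lamb1, Lamc1 and Itga6. The other 5 calls of day 0 were lost there, with Lamb3 at -0.54 ± 0.32, Lama5 at -0.88 ± 0.45, Itgb4 at -0.36 ± 0.35, Col17a1 at -0.70 ± 0.35 and Plec at -0.48 ± 0.48. Plec also lost its call at day 14, at -1.01 ± 0.48 (adjusted p = 0.0698). The count at day 0 also rested on single libraries: it was 1 without replicate 3 of ATLD, 3 without replicate 2 of ATLD and 2 without replicate 1 of WT, and 9, with Itga6 at -0.71 ± 0.23, without replicate 1 of ATLD. At day 14 it was 8 without replicate 1 of WT, where Lamb1 was lost, and at day 28 it was 9 whichever library was left out.

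The change with time was tested within each genotype. In WT organoids, Itga6 and Col17a1 were higher at day 14 than at day 0, and Lamb3 and Col17a1 were higher at day 28 than at day 0. That is 2 of 9 members in each comparison, where 30.3% and 24.7% of all genes were called and 15.2% and 12.3% were called higher, and no member was called lower, where 15.1% and 12.4% of all genes were. The member median was 0.41 and 0.51 on the log2 scale, against 0.01 and 0.02 over all genes. Between day 28 and day 14 no member passed the threshold in WT, where 0.905% of genes did. With an offset for GC content and length, chosen after seeing the data, 6 of 9 members were called higher in each comparison, and with the WT groups fitted alone 6 were at day 28. These WT counts also changed with single libraries: leaving out any of the 6 WT libraries left 1 call or, without replicate 1 of day 0, 0 calls at day 14, and leaving out any but replicate 2 of day 28 left 1 call at day 28. Without replicate 2 of WT day 14, Lamb3, Lama5 and Itgb4 were called higher at day 28 than at day 14, with adjusted p-values of 0.0212, 0.0438 and 0.0453.

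In ATLD organoids no member passed the threshold at day 14 against day 0, where 11.7% of genes did, 6.49% towards lower levels, and the member median was -0.15, against -0.03 over all genes. At day 28 against day 0, 6 of 9 members fell: Lama3, Lamb1, Lamc1, Itga6, Itgb4 and Col17a1. In that comparison 29.8% of all genes were called and 15.7% were called lower, and the member median was -1.06, against -0.02 over all genes. At day 28 against day 14, 4 members fell, Lama3, Lamb1, Lamc1 and Itga6, where 17.3% of all genes were called and 9.05% were called lower. The count at day 28 against day 0 was 3 (Lama3, Lamc1 and Itga6) without replicate 1 of ATLD day 0 or without replicate 1 or 2 of ATLD day 28, and the count against day 14 was 1 (Lama3) without replicate 1 of ATLD day 14 and 2 without replicate 1 or 2 of ATLD day 28. The comparisons with day 0 share the day 0 libraries of their genotype.

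**Figure D4:**
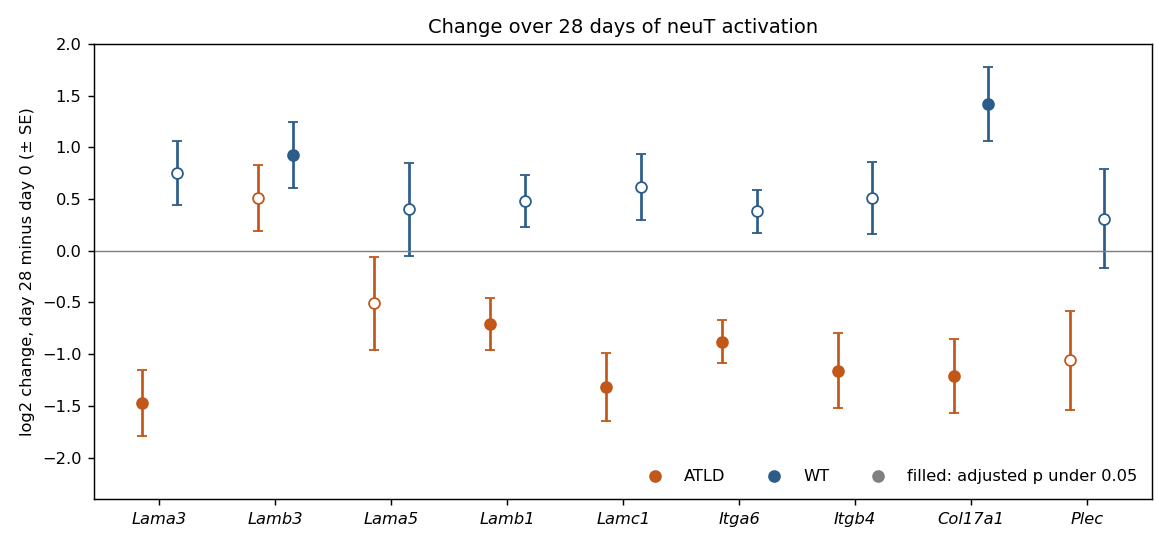
Log2 change at day 28 of neuT activation relative to day 0 (day 28 minus day 0) for each of the 9 genes, with ATLD left of WT; bars are 1 SE and filled points passed an adjusted p of 0.05. The ATLD points lie below 0 for 8 genes, with Lamb3 at 0.51, and the WT points lie above 0 for all 9.

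The difference of the change with time between the genotypes was tested directly as a genotype by time contrast. At day 28, 6 of 9 members changed more towards lower levels in ATLD than in WT, where 27.5% of all genes were called and 14.0% lower. Their contrasts were -2.63 ± 0.51 for Col17a1 (adjusted p = 0.000719), -2.23 ± 0.45 for Lama3, -1.95 ± 0.46 for Lamc1 (adjusted p = 0.00387), -1.67 ± 0.50 for Itgb4 (adjusted p = 0.0192), -1.26 ± 0.30 for Itga6 (adjusted p = 0.00439) and -1.19 ± 0.36 for Lamb1 (adjusted p = 0.0184). Lamb3, Lama5 and Plec gave -0.42 ± 0.45, -0.91 ± 0.63 and -1.37 ± 0.68 and missed the threshold. At day 14 only Col17a1 passed it among the members, with -1.50 ± 0.50 (adjusted p = 0.0417), where 21.3% of all genes were called and 10.6% lower. The day 28 count was 4 without replicate 1 of ATLD day 0 or without replicate 2 of ATLD day 28, 5 without replicate 1 of ATLD day 28 or replicate 3 of WT day 28, and 6 when any other library of these groups was left out. Col17a1 at day 14 was lost without any library of those groups other than replicates 1 and 3 of WT day 14, replicate 3 of ATLD day 0 and replicate 1 of ATLD day 14, with contrasts of -1.58 to -1.14.

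The second run of WT replicate 1 shows how far a member could differ between runs of the same sample. The sample titles say only that it was resequenced, not whether the library was prepared again. At day 14, Plec had 403 CPM in the second run and 106 CPM in the first, Lama5 359 and 109, Itgb4 606 and 205, Lamb3 593 and 237, and Col17a1 1347 and 724. Lama3 had 274 and 275 CPM in those runs, and Itga6 had 671 and 842. The members of higher GC content moved most: the log2 difference, second minus first run, was 1.93 for Plec at 61.3% GC, 0.00 for Lama3 at 51.7% and -0.33 for Itga6 at 48.9%. At day 0 the differences ran from -0.17 for Itga6 to 0.99 for Plec, and at day 28, where the first run of replicate 1 was not poor in GC-rich transcripts, from -0.11 for Itga6 to 0.20 for Plec. Lama3 differed by -0.08 to 0.00 between the runs of all 3 days, whereas the WT levels of Plec, Lama5, Itgb4 and Lamb3 at day 14 depended on the run.

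**Figure D5:**
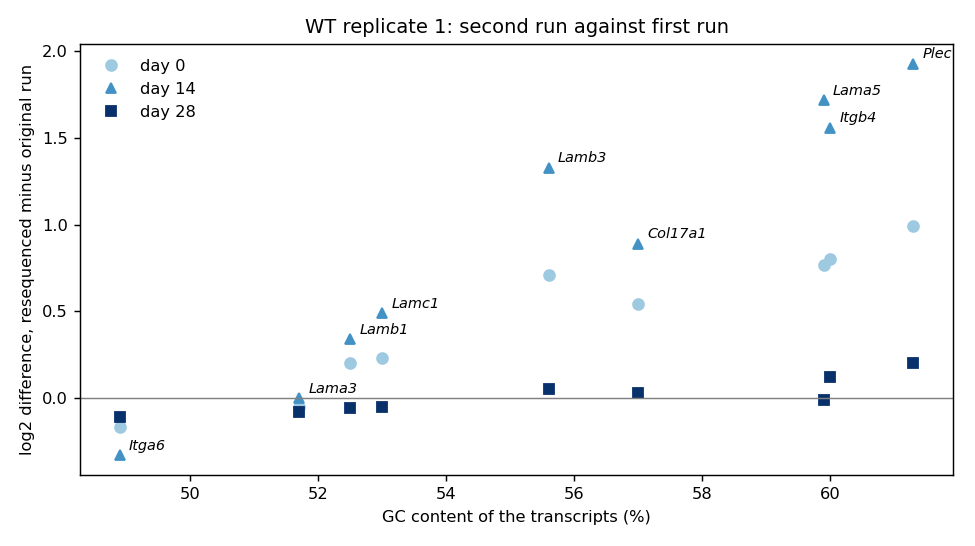
Log2 difference in CPM between the resequenced and the original run of WT replicate 1 (resequenced minus original) at days 0, 14 and 28, against the GC content of each gene's transcripts in percent; names mark the day 14 points. At day 14 the difference reaches 1.93 for Plec at 61.3% GC, and at day 28 all 9 points lie between -0.11 and 0.20.

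Other genes of the basement membrane and the hemidesmosome, from lists drawn up with earlier results of these data known, are given by their counts. Krt5, Krt14, Itga3 and Trp63 stand in more than 1 of the lists. Of 11 hemidesmosome and anchoring partners tested, 8 were lower and 1 was higher in ATLD than in WT at day 28, with a median log2 difference of -1.47. Over all genes tested at day 28, 64.2% were called, 34.9% lower and 29.3% higher. At day 0, 29.5% were called lower and 26.1% higher, and at day 14, 35.0% lower and 30.1% higher. The counts of this list and of the lists below stand against the shares of their day. The largest differences there were -4.80 ± 0.59 for Col7a1, the collagen of the anchoring fibrils, -2.72 ± 0.20 for Dsp, the desmosomal plaque protein desmoplakin, -2.71 ± 0.43 for Eppk1, the plectin relative epiplakin, and -2.45 ± 0.36 for Krt14, a keratin of basal cells. Col7a1 averaged 26.5 ± 15.6, 20.3 ± 8.31 and 13.9 ± 7.12 CPM in ATLD and 124 ± 20.8, 203 ± 140 and 293 ± 116 CPM in WT at days 0, 14 and 28 (SD, n = 3 each). Cd151, a tetraspanin that binds the laminin integrins, was the 1 partner higher in ATLD, by 0.46 ± 0.17. At day 14 the same list had 8 lower and 2 higher. At day 0 it had 4 lower and 1 higher, and Krt5 and Krt14 were not among the lower ones: the fitted differences were 0.45 ± 0.27 for Krt5 and 0.22 ± 0.36 for Krt14, with adjusted p-values of 0.168 and 0.617. Over 28 days, 3 of the 11 fell in ATLD (Krt5 by 1.04 ± 0.25, Dsp by 0.70 ± 0.18 and Eppk1 by 1.44 ± 0.41), where 15.7% of all genes were called lower. In WT, 4 of the 11 rose (Krt5 by 1.84 ± 0.26, Krt14 by 1.81 ± 0.34, Dsp by 0.72 ± 0.18 and Ppl, the plakin periplakin, by 0.68 ± 0.15), where 12.3% of all genes were called higher.

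Of 15 other basement membrane genes tested, 12 were lower and 2 were higher in ATLD than in WT at day 28, with a median of -1.65. Hspg2, which encodes the proteoglycan perlecan, differed by -4.60 ± 0.75, Fras1, of the embryonic epithelial basement membrane, by -3.06 ± 0.65, and Col18a1, the collagen that yields endostatin, by -2.51 ± 0.46. Smoc1, a secreted calcium-binding protein, ran the other way, with 3.73 ± 0.18. It averaged 36.6 ± 0.874 CPM in ATLD and 2.93 ± 0.584 CPM in WT at day 28. Its difference at day 0 was -0.57 ± 0.16, called lower in ATLD. At day 0 and day 14 the list had 7 and 8 lower members and 0 and 1 higher ones. Of all genes, 29.5% and 35.0% were called lower and 26.1% and 30.1% higher at those days. Of 3 other laminin chains tested, Lama1 differed by -3.65 ± 0.40 and Lama4 by -1.41 ± 0.18 at day 28, at a mean log2 CPM of 0.70 for Lama1, which marks it as scarce, and Lamb2 did not pass the threshold. At day 0 Lama4 was called the other way, higher in ATLD by 0.54 ± 0.18 (adjusted p = 0.0146), and Lama1 was lower by a log2 difference of -0.99 ± 0.31. Among 11 laminin receptors tested at day 28, 5 were lower and 2 higher, shares near those of all genes, with a median of -0.49. The largest were Itga7, the laminin integrin of muscle, at 1.61 ± 0.35, and Itga1 at -1.33 ± 0.25. Next came Itga3, the alpha subunit of another laminin-332 receptor, at -1.31 ± 0.34, and Sdc1, syndecan 1, at -1.30 ± 0.21. Itga7, at a mean log2 CPM of 1.38, was called the other way at day 0, with -2.14 ± 0.37 (adjusted p = 0.000107). Of 10 processing enzymes, 7 were lower and 2 higher at day 28. The largest differences were -2.02 ± 0.16 for the gelatinase gene Mmp2, -1.32 ± 0.21 for Mmp14, the membrane protease that cleaves laminin-332, and 1.24 ± 0.18 for Plat, tissue plasminogen activator. A list of 8 transcriptional regulators held Trp63, Tead1, Yap1, Wwtr1, Grhl2, Klf4, Klf5 and Tfap2c. Of these, 6 were lower and 1 higher at day 28, led by Klf4, an epithelial transcription factor, at -3.74 ± 0.19. Trp63, the transcription factor of basal epithelium, averaged 67.4 ± 4.32, 44.3 ± 9.62 and 43.6 ± 7.71 CPM in ATLD and 125 ± 2.71, 236 ± 22.7 and 197 ± 4.58 CPM in WT at days 0, 14 and 28, with log2 differences of -0.93 ± 0.15, -2.44 ± 0.15 and -2.21 ± 0.15.

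Cell type markers also differed between the groups, not always in the direction of the members, and their part in the results was not tested. All 8 luminal markers were higher in ATLD at day 14 and day 28 and 6 of 8 at day 0, led at day 28 by Elf5, the regulator of luminal progenitors, with 4.85 ± 0.15. Of all genes, 26.1%, 30.1% and 29.3% were called higher at days 0, 14 and 28, and 29.5%, 35.0% and 34.9% lower. The summed level of the luminal list was 6068 to 6665, 4897 to 5732 and 5235 to 6310 CPM in ATLD libraries and 2825 to 3258, 1190 to 1764 and 1202 to 1675 CPM in WT libraries at days 0, 14 and 28. The basal and myoepithelial list summed to 3814 to 4148, 2549 to 2565 and 2045 to 2263 CPM in ATLD and to 2174 to 2799, 4070 to 10046 and 4692 to 8915 CPM in WT. These sums are carried by Krt5 and Krt14 and have no batch term. In the fit with the batch term, none of the 8 basal markers was called higher in ATLD at day 0, and 4 were called lower: Myh11, a scarce myosin transcript, at -2.98 ± 0.30, Cnn1 at -1.74 ± 0.22, Trp63 at -0.93 ± 0.15 and Acta2 at -0.42 ± 0.15. At day 28 the directions within the list differed: 5 of 8 markers were lower in ATLD, among them Krt17 at -2.82 ± 0.43, and 3 were higher, among them Oxtr, the oxytocin receptor of myoepithelium, at 1.82 ± 0.11 and the contractile genes Cnn1 at 1.31 ± 0.25 and Acta2 at 1.09 ± 0.15. In WT, Acta2 fell by 3.55 ± 0.16 over 28 days while Krt5 and Krt14 rose. Squamous markers summed to 24.8 to 31.5, 13.6 to 16.5 and 10.7 to 12.6 CPM in ATLD at days 0, 14 and 28. In WT they summed to 43.1 to 47.0, 204 to 271 and 117 to 136 CPM. The squamous sums are carried by Krt6a and have no batch term. In the fit with the batch term, Krt6a was lower in ATLD at day 0, at -0.99 ± 0.15. The scarce Sprr1b, Ivl and Krt6b were called higher there, at 3.73 ± 0.69, 2.58 ± 0.32 and 1.95 ± 0.65.

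Markers of cells other than mammary epithelium were low. Fibroblast markers summed to 11.4 to 31.4 CPM over all ATLD libraries and 18.6 to 57.0 CPM over the original WT libraries, and endothelial markers to 1.42 to 2.42 and 1.65 to 3.17 CPM. Adipocyte markers reached at most 0.0860 and 0.110 CPM, and none of the 4 adipocyte genes passed the filter on low counts. Macrophage and leukocyte markers summed to 2.22 to 3.34 CPM in ATLD and 6.71 to 11.9 CPM in the original WT libraries, and lung epithelial markers to 0 to 0.205 CPM in ATLD and at least 6.65 CPM in each original WT library. Of the 4 lung genes, 2 to 4 had 0 counts in each ATLD library. In the resequenced WT runs the last 2 lists summed to 2.26 to 3.03 and 0.221 to 0.873 CPM, so their WT level differed between the runs.

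Across the 18 original libraries the members' log2 levels moved together to different degrees. Pearson's r between members, over 36 pairs, ran from 0.52 to 0.99 with a median of 0.85. Within the ATLD libraries the pairs had a median of 0.86 and a lowest value of -0.20, and within the WT libraries a median of 0.72 and a lowest value of -0.47. The points share genotype, day, sequencing batch and depth, so these values are descriptions. Among 10198 genes of at least moderate level (a mean log2 CPM of 3 or more), the patterns most like Lama3 over the 18 libraries were those of Slit2 (r = 0.992), Robo2 (r = 0.991), Glg1 (r = 0.985) and Tet1 (r = 0.984). Those most like Lamb3 were Mink1 (r = 0.969), Fbxo10 (r = 0.966), Slc45a4 (r = 0.964) and Ano8 (r = 0.954). Those most like Itgb4 were Igsf9 (r = 0.981), Cnnm4 (r = 0.975), Unc5b (r = 0.974) and Kctd15 (r = 0.972). None of these 12 genes was among the lists of basement membrane or hemidesmosome genes.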

How the data were processed

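Polyadenylated RNA from 21 libraries was sequenced with a stranded TruSeq kit, per the labels. The authors deposited raw counts per gene, and per the submitters' processing notes featureCounts, DESeq2 and the mm10 build were used. Not given in the sources used here: tool versions, aligner, strand option of the counting and annotation version. Gene length in bases is a further column (unit "other") of the deposited table, per the file headers. Genotype and day labels gave 6 groups of 3 original libraries. The 3 resequenced runs of WT replicate 1 entered the genotype comparisons as further libraries, although they repeat samples already present. The fit treated them as independent, so the SE and p-values of the genotype comparisons may be too small.

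All 55536 gene IDs matched GENCODE vM21, and 55450 had a transcript GC content. edgeR 4.0.16 under R 4.3.3 was used, with filterByExpr (minimum count 10, minimum total 15), TMM scaling and a prior count of 0.125 for fitted folds. Calls are quasi-likelihood F tests, Benjamini-Hochberg adjusted over all genes tested, with an adjusted p under 0.05. Day comparisons and genotype by time contrasts were fitted on 18 libraries (18684 genes, 12 residual degrees of freedom). Genotypes were compared over 21 libraries, batch being a term of the model (18844 genes, 14 degrees of freedom). An SE is the size of the log2 change over the root of F. Values per kb use the deposited length.

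The members and the gene lists were chosen with earlier results of these data known. All members were named in each comparison, and from each list up to 4 called genes of largest change whose log2 CPM averaged 1 or more. Likeness was Pearson's r of log2(CPM + 0.5). Genes named outside this rule after their values were seen were Lama1, Lamb2, Cd151, Myh11, Oxtr, and Cnn1 and Acta2 at day 28. Krt5, Krt14, Sprr1b, Ivl, Krt6b and Smoc1 at day 0 were also named outside it. The ratios were chosen in the same way.

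In simulated data, with 200 genes changed, the share of 2-fold changes found was 82% for WT day 14 against day 0 (4.74% of calls false). It was 81% for ATLD day 28 against day 0 (2.17% false), 74% for ATLD against WT at day 28 (4.47% false) and 61% for genotype by time at day 28 (5.52% false). The simulations changed fewer genes than were called in these data. For ATLD against WT they also drew the second runs as independent samples, with a small batch shift that was equal at all days. None of the simulations drew shifts shared by many genes of a library, such as those of GC-rich transcripts in these WT libraries. The false shares of all these comparisons in these data are therefore not known from the simulations. Alternatives were median-of-ratios scaling, no filter, DESeq2 1.42.0, a GC offset, a replicate block, second runs in place of originals, only the compared groups, a fit lacking the batch term, the later batch by itself and each library left out. Chosen after seeing the data were an offset for GC and length (splines of 5 degrees of freedom) and a fit without the 3 WT libraries poor in GC-rich transcripts.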

Additional observations from a re-analysis of the deposited data

Results flagged for a closer look

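For these members the change with time differed between the genotypes by the genotype by time contrast (ATLD change minus WT change, edgeR's quasi-likelihood test with Benjamini-Hochberg adjustment over all genes). At day 14 it was -1.50 ± 0.50 for Col17a1 (adjusted p = 0.0417), which rose in WT and did not pass the threshold in ATLD. At day 28 it was -2.63 ± 0.51 for Col17a1, -2.23 ± 0.45 for Lama3, -1.95 ± 0.46 for Lamc1, -1.67 ± 0.50 for Itgb4, -1.26 ± 0.30 for Itga6 and -1.19 ± 0.36 for Lamb1 (SE). The background share of genes called was 21.3% at day 14 and 27.5% at day 28. The contrasts used the original libraries, in which all ATLD libraries belong to the second sequencing batch and all WT libraries to the first, so genotype and any batch effect that changed with day cannot be told apart.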

How the results depend on the processing

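Counts are members called of 9. With no filter the genotype by time contrast of day 14 had 2, with the GC offset 3, with the GC and length offset 3, and without the 3 WT libraries poor in GC-rich transcripts 3, against 1 as reported. With the GC and length offset, WT day 14 against day 0 and WT day 28 against day 0 had 6 each, against 2 each, and in ATLD day 28 against day 0 Lamb3 was called higher (0.51 ± 0.17, adjusted p = 0.0217) beside 7 members called lower. With WT groups fitted alone, WT day 28 against day 0 had 6. With resequenced runs in place of originals, WT day 14 and WT day 28 against day 0 had 1 each. ATLD against WT at day 0 had 4 without the batch term and 4 in the second batch alone, against 8. The cause of these shifts was not tested. Leaving out each library gave 0 to 1 in WT day 14 against day 0, 1 to 2 in WT day 28 against day 0, 0 to 3 in WT day 28 against day 14, 0 to 0 in ATLD day 14 against day 0, 3 to 7 in ATLD day 28 against day 0, 1 to 5 in ATLD day 28 against day 14, 1 to 9, 8 to 9 and 9 to 9 in ATLD against WT at days 0, 14 and 28, and 0 to 2 and 4 to 6 in the genotype by time contrasts of days 14 and 28. Over all alternatives, 1374 member values kept their side of the threshold, 88 lost it, 50 gained it and 0 reversed once called.

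The replicate numbers were not shown to pair samples: of 27 pairs of same-numbered libraries, r of their deviations ran from -0.89 to 0.6, and 9 exceeded 0.1. With the replicate block, WT day 14 against day 0 and WT day 28 against day 0 had 1 call each, the day 14 contrast 0 and ATLD against WT at day 0 had 5. The limits are 3 libraries a group, a batch term that rests on 3 samples sequenced in both batches, WT libraries that differ in their yield of GC-rich transcripts, and ATLD replicates that spread together for all 9 members. Every member had over 10 CPM in each library.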
